A study of Mus musculus with 2 samples.

Results

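In a single-cell RNA library of weakly pigmented B16 F10 cells, 434 of 2986 cell barcodes carried mostly mitochondrial RNA, and these barcodes are described here. They are absent from the authors' cell table, carry the library number of the low pigment cells and were selected on a measured value, namely more than 50% of their unique molecular identifiers (UMIs) from genes whose symbol starts with mt-. B16 F10 is a mouse melanoma line, seeded at 100 cells per cm2, grown for 7 days in serum-supplemented DMEM of high glucose content, and then trypsinized. Cells of low and of high pigment were separated on a flow cytometer by side scatter, the light that granular content deflects, and each sort gave 1 library of 10x Genomics 3′ v3.1 chemistry, with no genotype or drug differing between them. With 1 library per sort there is no replicate of either group, so no difference below has a test over samples. The 95% intervals below are exact and cover counting error only. The comparison group was the 1900 low pigment cells that the authors kept in their table, all of which had at least 7500 UMIs and under 10% mitochondrial UMIs.

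Mitochondria keep a small circular genome whose protein genes encode core subunits of the respiratory chain and of ATP synthase, and whose transcripts are polyadenylated inside the organelle. All other cellular proteins, including most of the respiratory chain, are encoded in the nucleus and translated mainly in the cytosol. Barcodes with a high mitochondrial share are usually removed from single-cell data because cells that have lost their cytosolic RNA look like this, although the share alone does not show what a droplet held.

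The mostly mitochondrial barcodes held about as many mitochondrial UMIs as a kept cell, and far fewer nuclear-encoded UMIs. Mitochondrial UMIs ranged from 573 to 2057 per barcode with a median of 820, and in the table cells the median was 912, with a 5th to 95th percentile of 541 to 1563. Of the 434 barcodes, 431 lay inside that table range. Nuclear-encoded UMIs ranged from 21 to 768 with a median of 70, against a median of 15090 and a minimum of 6999 in the table cells. The groups overlapped almost fully in mitochondrial UMIs and not at all in nuclear-encoded UMIs, as the plot of mitochondrial against nuclear UMIs shows. At these mitochondrial counts the rules that chose the groups left no room for overlap in nuclear-encoded UMIs. The ratio of medians was 216 for nuclear-encoded UMIs and 1.11 for mitochondrial UMIs. A median of 62 nuclear genes was detected per barcode, against 4202 in the table cells. Summed over all 434, the barcodes gave 383465 mitochondrial UMIs, which were 15.9% of the mitochondrial UMIs of the library, and 41652 nuclear-encoded UMIs, which were 0.128% of its nuclear-encoded UMIs. These totals follow in part from the selection and are given as a description.

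**Figure D1:**
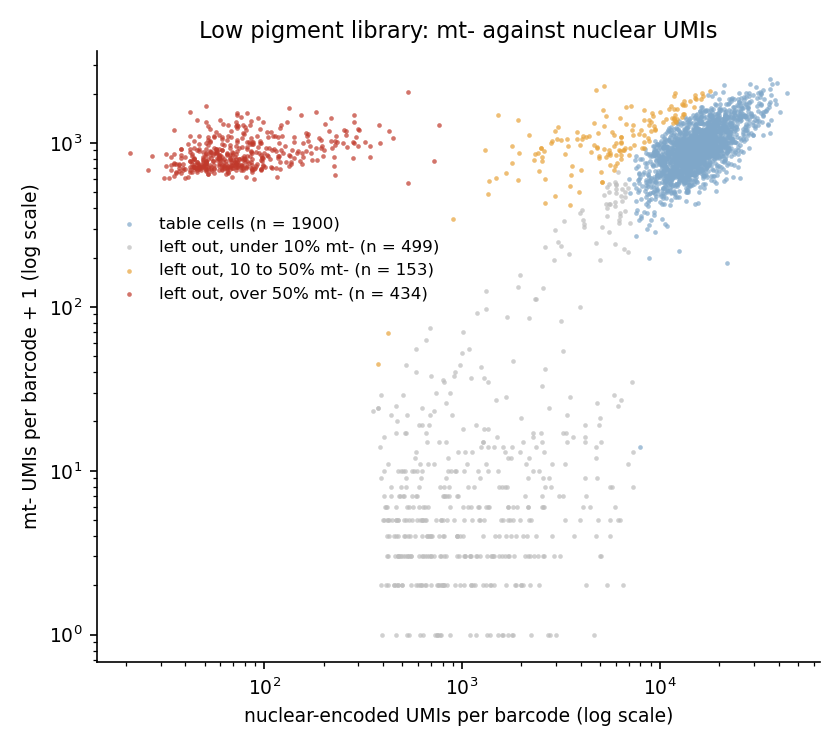
Mitochondrial UMIs plus 1 (vertical, log scale) against nuclear-encoded UMIs (horizontal, log scale) for the 2986 barcodes of the low pigment library, each point 1 barcode. The 434 mostly mitochondrial barcodes form a band from 573 to 2057 mitochondrial UMIs at the height of the table cells, but between 21 and 768 nuclear-encoded UMIs.

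The mitochondrial share had few intermediate values. Its median over the 434 barcodes was 92.4%, with quartiles of 89.3% and 94.2%. Over 90% mitochondrial UMIs were found in 312 barcodes, and over 80% in 412. Just inside the threshold lay barcodes of 51.5%, 51.9% and 62.7%, and just outside it barcodes of 49.3%, 41.8% and 40.6%. Only 6 of the 2986 barcodes of the library had a share between 35% and 70%, so the number chosen moved little with the threshold. The left-out barcodes of 10 to 50% numbered 153 and were far deeper, with a median of 5976 nuclear-encoded UMIs. A further 499 left-out barcodes with under 10% had a median of 1137 nuclear-encoded UMIs and 5 mitochondrial UMIs, the reverse imbalance.

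**Figure D2:**
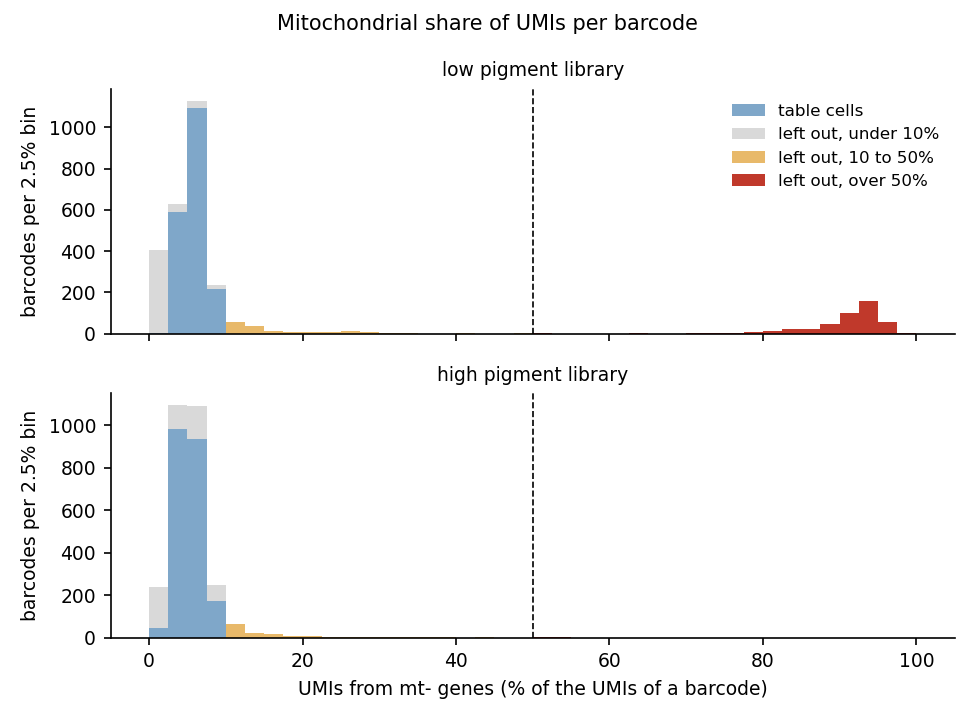
Number of barcodes per 2.5% bin of mitochondrial UMI share in the low pigment (top) and high pigment (bottom) libraries, coloured by class, with the threshold of 50% dashed. The low pigment library has a separate group with a median of 92.4%, and the high pigment library has 5 barcodes past the threshold, none above 69.98%.

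In the high pigment library, 5 of 2832 barcodes met the same rule, with shares of 50.3%, 50.5%, 54.0%, 54.4% and 69.98%. They held 489 to 947 nuclear-encoded UMIs each, a depth that 4 of the 434 low pigment barcodes reached. Their nuclear-encoded RNA also differed in part: Malat1, a long noncoding RNA that stays in the nucleus, made up 3.56% (2.97 to 4.24) of it, whereas in the low pigment barcodes it made up 0.0912%. The 2 low pigment barcodes at 50 to 60% mitochondrial UMIs had a Malat1 share of 0.159% (0.0193 to 0.573). In the 5 high pigment barcodes Gm42418, described below, took 1.42% (1.05 to 1.87). It took 3.07% in the low pigment barcodes and 0.0580% in low pigment table cells. In the same order Rps19 took 1.19%, 1.26% and 0.379%, and Pabpc1 0.290%, 0.269% and 0.0820%. Ftl1 took 1.19%, 2.85% and 1.34%, and ribosomal protein genes 23.7%, 32.3% and 22.5%. The pigment sort and the library preparation are the same division of the samples, so their parts in the number of such barcodes cannot be told apart. Only 2 barcode sequences occurred in both libraries, and 1 of them belonged to the barcodes described here.

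The mitochondrial RNA of these barcodes was not a plain copy of that of table cells. All 13 protein genes of the mitochondrial genome were measured, and their shares of the mitochondrial UMIs were compared, which does not use the selected value itself. Because shares add to 100%, a larger share of some genes lowers the others. Complex I genes together took 20.05% (19.92 to 20.17) of mitochondrial UMIs, against 27.0% in table cells. Cytochrome c oxidase genes took 39.4% against 33.9%, and ATP synthase genes 31.2% against 28.0%. The complex I genes did not all lie on the same side, as given below.

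mt-Nd1, which encodes a membrane subunit of complex I (chrM:2751-3707), had the lowest ratio of the 13 genes. It made up 6.59% (6.51 to 6.66) of summed mitochondrial UMIs in these barcodes and 12.1% in table cells, a ratio of 0.546 (0.539 to 0.554). Per barcode the median was 6.24% with a 5th to 95th percentile of 3.69 to 10.9%, against 11.9% and 7.85 to 16.1% in table cells. The ranges overlapped, but only 2.995% of the barcodes lay above the table median. mt-Nd2 had a ratio of 0.699 (0.687 to 0.711) and mt-Nd3 a ratio of 0.682 (0.662 to 0.702), both also subunits of complex I. mt-Cytb, the mitochondrial subunit of complex III, took 9.28% against 11.2%.

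mt-Atp8, a short subunit of ATP synthase, had the highest ratio. Its share was 1.32% (1.29 to 1.36) against 0.413% in table cells, a ratio of 3.21 (3.10 to 3.33), and 97.9% of the barcodes lay above the table median. mt-Nd4l, a small complex I subunit, had a ratio of 1.70 (1.65 to 1.76), with 1.27% against 0.745%. mt-Nd5, a large complex I subunit, had a ratio of 1.58 (1.54 to 1.62). These 3 genes were each under 2.1% of mitochondrial UMIs, so the differences in percentage points were small.

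The abundant oxidase and ATP synthase genes differed less. mt-Co2, a catalytic subunit of cytochrome c oxidase, took 14.9% against 11.7%, a ratio of 1.28 (1.27 to 1.29). mt-Co1, the other copper-binding catalytic subunit, had a ratio of 1.115 (1.103 to 1.127), mt-Co3 a ratio of 1.09 (1.08 to 1.11) and mt-Atp6, the most abundant gene, a ratio of 1.08 (1.08 to 1.09). mt-Nd4 stood at 0.919 (0.905 to 0.934). mt-Nd6, the only protein gene read from the other strand, had shares of 0.182% in both groups and a ratio of 0.996 (0.916 to 1.08).

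**Figure D3:**
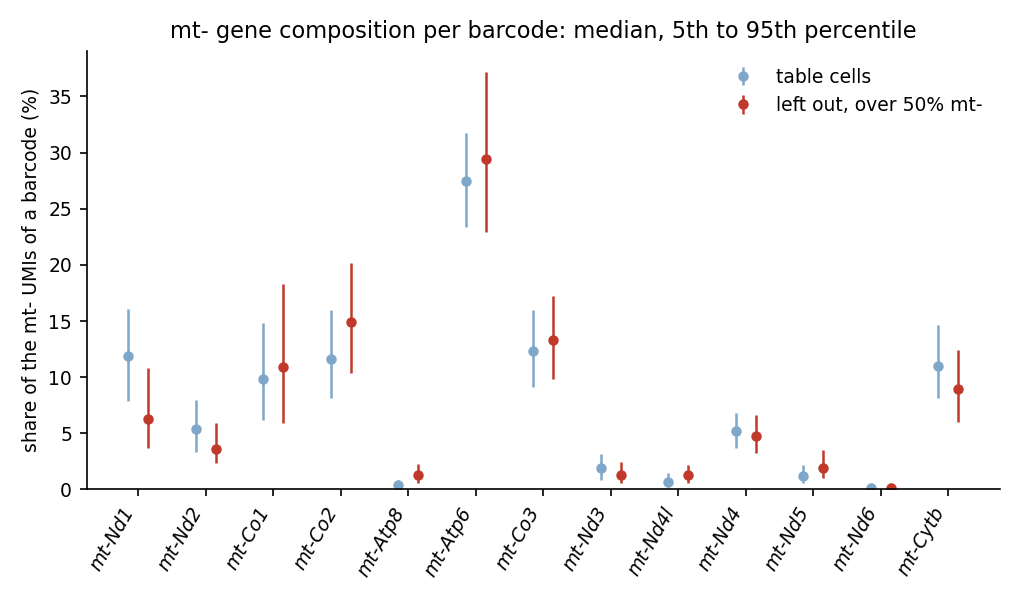
Share of each barcode's mitochondrial UMIs (vertical, %) taken by each of the 13 mitochondrial protein genes, in genome order, with points at the median and bars from the 5th to the 95th percentile, for table cells (blue) and mostly mitochondrial barcodes (red). mt-Nd1 is lower (6.24% against 11.9%) and mt-Atp8 higher (1.31% against 0.387%) in the mostly mitochondrial barcodes.

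Mitochondrial depth was nearly matched between the groups. With every barcode thinned to 500 mitochondrial UMIs the medians were 6.4% against 11.8% for mt-Nd1 and 1.2% against 0.4% for mt-Atp8. That thinning kept all 434 barcodes and left out 58 shallower table cells. As a measure of how far libraries differ, the high pigment table cells had 10.9% mt-Nd1 and 0.289% mt-Atp8. The high pigment table cells thus stood nearer to the low pigment table cells than the mostly mitochondrial barcodes did. Left-out barcodes of 10 to 50% had 10.4% mt-Nd1 and 0.555% mt-Atp8, and those under 10% had 10.3% and 0.735%, each between the groups. Within the selected barcodes mt-Nd1 was 8.98% at a mitochondrial share of 70 to 80%, 7.38% at 80 to 90% and 6.13% above 90%. mt-Atp8 was 1.14%, 1.24% and 1.37% in the same bins. The composition thus lay farther from that of table cells in the barcodes with the highest mitochondrial share.

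The assay reads transcripts near their 3′ ends, so the ends of genes with large differences are shown. mt-Atp8 and mt-Nd4l each overlap a downstream neighbour on the same transcript, and the capitals mark the bases shared with mt-Atp6 or mt-Nd4 in GENCODE M21 (GRCm38, + strand, chrM:7910-7969 and chrM:10114-10173).
mt-Atp8: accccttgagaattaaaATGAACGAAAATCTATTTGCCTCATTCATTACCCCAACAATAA
mt-Nd4l: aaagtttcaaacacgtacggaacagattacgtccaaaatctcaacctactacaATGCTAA
The overlap is 43 bases for mt-Atp8 with mt-Atp6 and 7 bases for mt-Nd4l with mt-Nd4. The sources used here do not give how the authors' counting assigned reads in these overlaps, so the split between the partners is uncertain. Per 100 UMIs of mt-Atp6 there were 4.43 of mt-Atp8 in the selected barcodes and 1.497 in table cells. Per 100 UMIs of mt-Nd4 there were 26.4 of mt-Nd4l, against 14.2.

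For mt-Nd1 and mt-Nd3, which were lower, and mt-Co2 and mt-Nd5, which were higher, the last 60 bases are printed with the final 3 bases in capitals (GENCODE M21, GRCm38, + strand; chrM:3648-3707, chrM:9747-9806, chrM:7637-7696 and chrM:13506-13565).
mt-Nd1: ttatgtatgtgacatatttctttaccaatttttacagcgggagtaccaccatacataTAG
mt-Nd3: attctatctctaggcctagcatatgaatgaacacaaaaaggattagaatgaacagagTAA
mt-Co2: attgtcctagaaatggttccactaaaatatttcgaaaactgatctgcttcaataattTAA
mt-Nd5: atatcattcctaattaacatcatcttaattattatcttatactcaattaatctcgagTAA
Adenine made up 30% of the mt-Nd1 window, 43.3% of the mt-Nd3 window and 36.7% of each of the other windows. Over whole transcripts mt-Atp8 had the highest adenine content of the 13 genes, 40.7%, but mt-Nd2 came next with 36.9% and was lower. Adenine content and the direction of the difference were not ordered alike across the 13 genes, and the part of adenine content in the differences was not tested.

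The nuclear-encoded RNA that remained was that of melanoma cells in its main features. Of 7 markers that define B16 cells, all 7 had UMIs: Dct, an enzyme of melanin synthesis, had 112, Mlana 49, Tyrp1 41 and Pmel 30, whereas the transcription factors Mitf and Sox10 had 5 and 2, and Tyr had 3. Of 6 lists of markers of other cell types, 5 were at or near 0. The lists for fibroblasts, keratinocytes and erythroid cells or platelets had 0 UMIs in 41652. A limit of 3 UMIs for a count of 0, which is a rule and not an exact interval, stands at 72.0 nuclear CPM (counts for each 1000000 nuclear-encoded UMIs), and the leukocyte list had 1 UMI. The endothelial list had 4 UMIs, all from Egfl7. Free RNA in the droplets could not be measured from called barcodes alone, and its part in the nuclear-encoded UMIs was not tested.

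Nuclear-encoded RNA was compared as nuclear CPM, summed over barcodes, and a gene was called by size alone at a ratio of 1.5. Across 3051 genes with a mean nuclear CPM of at least 50, 606 were higher (19.9%) and 896 lower (29.4%) in the selected barcodes. The median measured gene had a log2 ratio of -0.16, and with that gene set to a ratio of 1 the counts were 794 and 714. These counts say little, because the median gene had 4 UMIs there and intervals reached a median of 2.56-fold upward. The 138 genes with a mean of at least 1000 nuclear CPM over both groups had at least 30 UMIs each. Of them 34 were higher (24.6%) and 16 lower (11.6%), and 27 of the 34 coded for ribosomal proteins against 1 of the 16. Of the other 7 higher genes, all but Ftl1 were under 1000 nuclear CPM in table cells and entered through the selected barcodes. Some lower genes, such as Malat1 and Pmel, were under 1000 in the selected barcodes. Both counts thus depend in part on this filter. Ribosomal protein genes were common among the well counted genes in any case, being 49 of the 88 within 1.5-fold. The level of the most counted genes and the summed level of gene lists are therefore described below.

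**Figure D4:**
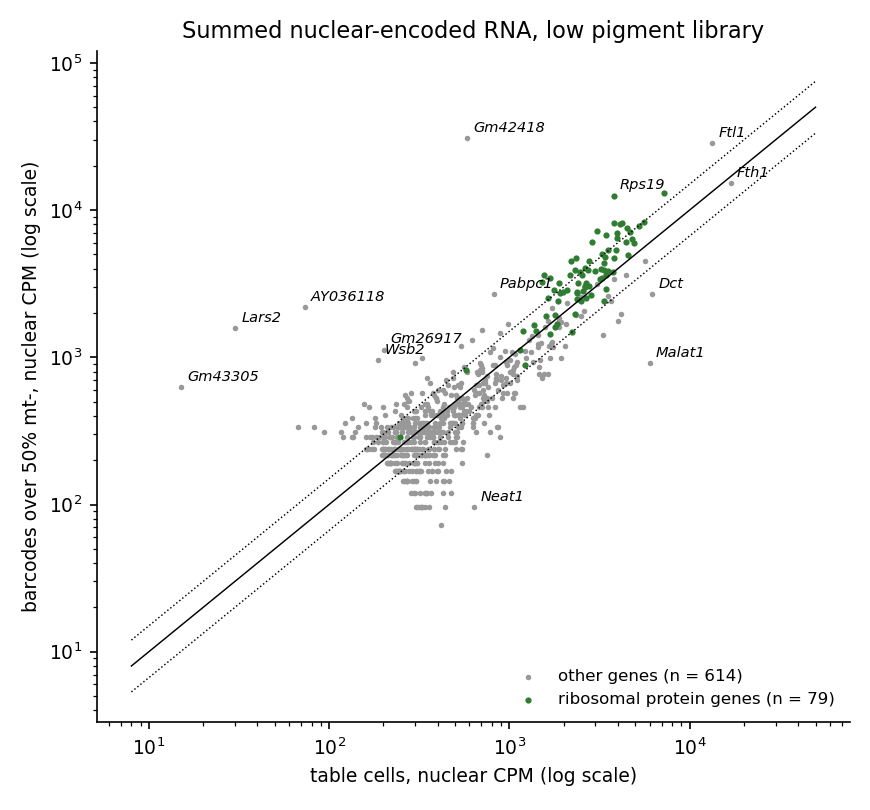
Nuclear CPM of the mostly mitochondrial barcodes (vertical, log scale) against low pigment table cells (horizontal, log scale) for the 693 genes with a mean of at least 200, with ribosomal protein genes in green, the solid line at equality and dotted lines at 1.5-fold. Gm42418 stands far above the line (30707 against 580) and Malat1 far below it (912 against 6017).

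The most abundant nuclear-encoded RNA was Gm42418. RefSeq lists this symbol as a synonym of the 18S ribosomal RNA pseudogene Rn18s-rs5, whose span overlaps that of Gm42418 in GENCODE over 1245 bases. Gm42418 had 1279 UMIs in 343 of the 434 barcodes and at most 52 in any of them. Its level was 30707 nuclear CPM against 580 in table cells, 52.9-fold higher (49.9 to 56.0). AY036118, which in GENCODE lies wholly inside Gm42418 on the opposite strand, had 2185 against 73.3, 29.8-fold higher (23.9 to 36.7). RefSeq gives AY036118 another span, chr17:39848112-39898385. Gm26917, a noncoding gene next to them on chromosome 17, had 1128 against 202, 5.57-fold higher (4.09 to 7.42). Lars2, the mitochondrial leucyl-tRNA synthetase gene on chromosome 9, had 66 UMIs and 1585 against 30.2 nuclear CPM, 52.55-fold higher (40.3 to 67.5). Gm43305, a noncoding gene on chromosome 14, had 26 UMIs and was 41.4-fold higher (26.8 to 61.5). The 3 genes of the list named ribosomal RNA overlap, Gm42418, AY036118 and Lars2, together took 3.45% (3.27 to 3.63) of nuclear-encoded UMIs against 0.0684%. For Lars2 an overlap with ribosomal RNA was not measured. In left-out barcodes of 10 to 50% and under 10% the 3 genes took 0.194% and 0.197%.

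The shared position of the first pair is shown on its opposite strands (GENCODE M21, GRCm38, chr17:39847113-39847172), as the final 60 bases of AY036118 on the - strand and the same bases within Gm42418 on the + strand, all in lower case.
AY036118: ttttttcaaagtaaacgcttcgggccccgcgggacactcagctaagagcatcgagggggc
Gm42418: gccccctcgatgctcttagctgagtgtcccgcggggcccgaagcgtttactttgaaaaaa
Reads from this pair can be told apart only by strand, and the sources used here do not state whether the authors' counting used strand.

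Gm42418 was also more frequent at equal depth. After thinning to 40 nuclear-encoded UMIs, which left out 30 shallower barcodes, 62.1% (57.2 to 66.9) of the selected barcodes had a Gm42418 UMI, against 2.26% (1.64 to 3.04) of table cells. Without thinning the shares were 79.0% and 99.5%. The same thinning gave a median of 37 genes per barcode against 39 in table cells.

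Ribosomal protein genes, the largest group of nuclear-encoded mRNAs, took 32.3% (31.8 to 32.7) of nuclear-encoded UMIs against 22.5% in table cells, a ratio of 1.43 (1.41 to 1.46). Of 79 measured, 27 were higher, 1 was lower and 51 were within 1.5-fold, set against 19.9% and 29.4% over all measured genes. Rps19 stood out with 12556 nuclear CPM against 3785, 3.32-fold higher (3.04 to 3.61). Rpl37a was 2.37-fold higher (2.11 to 2.65) and Rps26 2.33-fold higher (1.97 to 2.73), whereas Rpl3 had a ratio of 0.666 (0.510 to 0.854). Many ribosomal protein genes and both ferritin genes have near-identical pseudogenes that could take or give reads, so single values are uncertain. The excess was uneven among the barcodes. In the 38 barcodes with at least 200 nuclear-encoded UMIs the ribosomal protein share was 41.3% summed, with a median of 43.1% and a highest value of 61.9%. In the 328 barcodes with under 100 it was 27.3%, with a median of 26.7% and quartiles of 22.3 and 31.3%. These 38 barcodes held 28.8% of the nuclear-encoded UMIs, and without them the ratio to table cells was 1.27.

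Ftl1, the ferritin light chain that stores iron, was the second most abundant gene and parted from its partner Fth1, the ferritin heavy chain. Ftl1 had 28450 nuclear CPM against 13371, 2.13-fold higher (2.01 to 2.25), with 1185 UMIs. Fth1 had 15197 against 16921, a ratio of 0.898 (0.8295 to 0.971). At 40 nuclear-encoded UMIs, 69.3% of the selected barcodes and 41.3% of table cells had an Ftl1 UMI, whereas 47.5% and 48.4% had an Fth1 UMI. The iron storage list took 4.68% against 3.32%. Of its 8 measured members only Ftl1 and Slc11a2, the latter with 4 UMIs, were higher by 1.5-fold. The NRF2 target list, which also holds both ferritin genes, had a summed ratio of 1.31 (1.25 to 1.36), although its median gene had a log2 ratio of -0.48. Of its 20 measured members 1 was higher, Ftl1, and 8 were lower, and without the 10 most abundant genes the summed ratio was 0.804. For both lists the shares over all measured genes were 19.9% higher and 29.4% lower.

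Among translation factors, Pabpc1, which binds poly(A) tails, had 2689 nuclear CPM against 820, 3.28-fold higher (2.70 to 3.95). Eef1g, an elongation factor subunit, was 1.72-fold higher (1.34 to 2.17). The whole list of 25 did not follow, with a summed ratio of 0.933 (0.878 to 0.989). Of its genes 2 were higher and 7 lower, set against 19.9% and 29.4% over all measured genes. Other genes named for their high ratios were Wsb2, 5.11-fold higher (3.65 to 6.97) on 40 UMIs, Metrn, 3.09-fold higher (1.88 to 4.78) on 20 UMIs, and Ptpn14, Ryk and Mapkapk2 on 13 or 14 UMIs each. Ppp1r14b, with 64 UMIs, was 2.17-fold higher (1.67 to 2.77).

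RNA that stays in the nucleus was scarce. Malat1 had 38 UMIs in 36 of the 434 barcodes, and its level was 912 nuclear CPM against 6017 in table cells, 6.60-fold lower (4.805 to 9.320). Neat1, the scaffold RNA of paraspeckles, had 4 UMIs and 96.03 against 639, 6.66-fold lower (2.60 to 24.4). Kcnq1ot1, an imprinted antisense RNA, had 1 UMI, with 24.0 against 233. The other 10 genes among the 12 lowest ratios, among them Canx, an endoplasmic reticulum chaperone, and Smad7, an inhibitor of TGF-beta signalling, had 3 to 9 UMIs each and ratios of 0.172 to 0.296. Only 4 of the 11 RNAs of this list were measured, and the fourth, Gm26917, was higher, as given above. Against left-out barcodes under 10% the summed ratio of the list was 0.872, and against table cells 0.305 (0.245 to 0.374). Gm26917 gave 47 of the list's 91 UMIs in the selected barcodes and so raised both ratios. Without it and the ribosomal RNA overlap genes the ratio to table cells was 0.157. Left-out barcodes of 10 to 50% had 13130 nuclear CPM of Malat1, above the table cells, so a raised mitochondrial share did not go with low Malat1 throughout the library. Left-out barcodes under 10% had 2133, above the 912 of the selected barcodes.

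Pigment genes were also a smaller part of the remaining RNA. The 23 genes of melanin synthesis and the melanosome took 0.977% (0.885 to 1.08) of nuclear-encoded UMIs against 1.77%, 1.81-fold lower (1.643 to 1.99995). Of 18 measured 1 was higher and 8 lower, set against 19.9% and 29.4% over all measured genes, and 5 were under the minimum level. Dct was 2.31-fold lower (1.92 to 2.80), with 2689 nuclear CPM against 6205. Pmel, the protein of the melanosome fibrils, was 2.11-fold lower (1.48 to 3.12), Tyrp1 1.97-fold lower (1.45 to 2.75) and Gpnmb, a melanosome and lysosome glycoprotein, 1.89-fold lower (1.34 to 2.77). Mlana had a ratio of 0.670 (0.495 to 0.886), Ptgds of 0.722 (0.5378 to 0.9499) and Cd63 of 0.729 (0.513 to 1.01). Slc45a2, a melanosome transporter, had 6 UMIs and a ratio of 0.331 (0.121 to 0.721). Tyr, Trpm1, Mlph, Rab38, Slc24a5, Cited1, Slc7a11, Myo5a, Mc1r and Tspan10 had 1 to 10 UMIs each, and their intervals included a ratio of 1. The direction of Tyrp1 and Gpnmb depended on the comparison group. Against left-out barcodes under 10%, which are nearer in depth, Tyrp1 and Gpnmb had log2 ratios of 0.31 and 0.30, and the list ratio was 0.797. The left-out barcodes of 10 to 50% had a pigment gene share of 2.95%, and high pigment table cells 2.23%.

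Transcripts read at the endoplasmic reticulum and in the cytosol were both lower where they code for chaperones. The endoplasmic reticulum chaperone list took 0.586% against 0.993%, 1.70-fold lower (1.496 to 1.930), with 3 of 34 measured higher and 18 lower. Beside this and the next counts stand 19.9% higher and 29.4% lower over all measured genes. The cytosolic heat shock list was 1.78-fold lower (1.61 to 1.98), with 1 of 19 higher and 12 lower. Hsp90aa1 was 2.35-fold lower (1.82 to 3.08), Hsp90ab1 2.30-fold lower (1.83 to 2.93) and Hspa8 1.70-fold lower (1.29 to 2.29). Cytoskeleton genes were 1.58-fold lower (1.43 to 1.74), with Actb 2.12-fold lower (1.71 to 2.67), although Tuba1b was 2.06-fold higher (1.39 to 2.94). The pre-mRNA splicing list was 1.61-fold lower (1.45 to 1.80), with 0 of 39 measured higher and 25 lower. The immediate early list was 2.07-fold lower (1.64 to 2.66), and in high pigment table cells it stood lower still, at 0.0986% against 0.348% in low pigment ones.

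Nuclear genes for mitochondrial proteins were not a larger part of the nuclear-encoded RNA. The oxidative phosphorylation list of 76 genes took 3.57% of nuclear-encoded UMIs in both groups, a ratio of 0.998 (0.948 to 1.05). Of 75 measured 11 were higher and 15 lower, set against 19.9% and 29.4% over all measured genes. Within it Atp5k, an ATP synthase subunit, was 3.02-fold higher (2.17 to 4.10) on 41 UMIs, and Ndufs6 and Ndufa6, complex I subunits, were 2.02-fold (1.291 to 3.002) and 2.03-fold (1.24 to 3.14) higher. The mitochondrial ribosome list had a ratio of 1.00 (0.905 to 1.102). The import and membrane list had a ratio of 0.795 (0.722 to 0.873), the tricarboxylic acid cycle list 0.675 (0.529 to 0.848) and the quality control list 0.709 (0.604 to 0.827). High pigment table cells had an oxidative phosphorylation share of 4.19%, which stood farther from the low pigment table cells than the selected barcodes did.

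**Figure D5:**
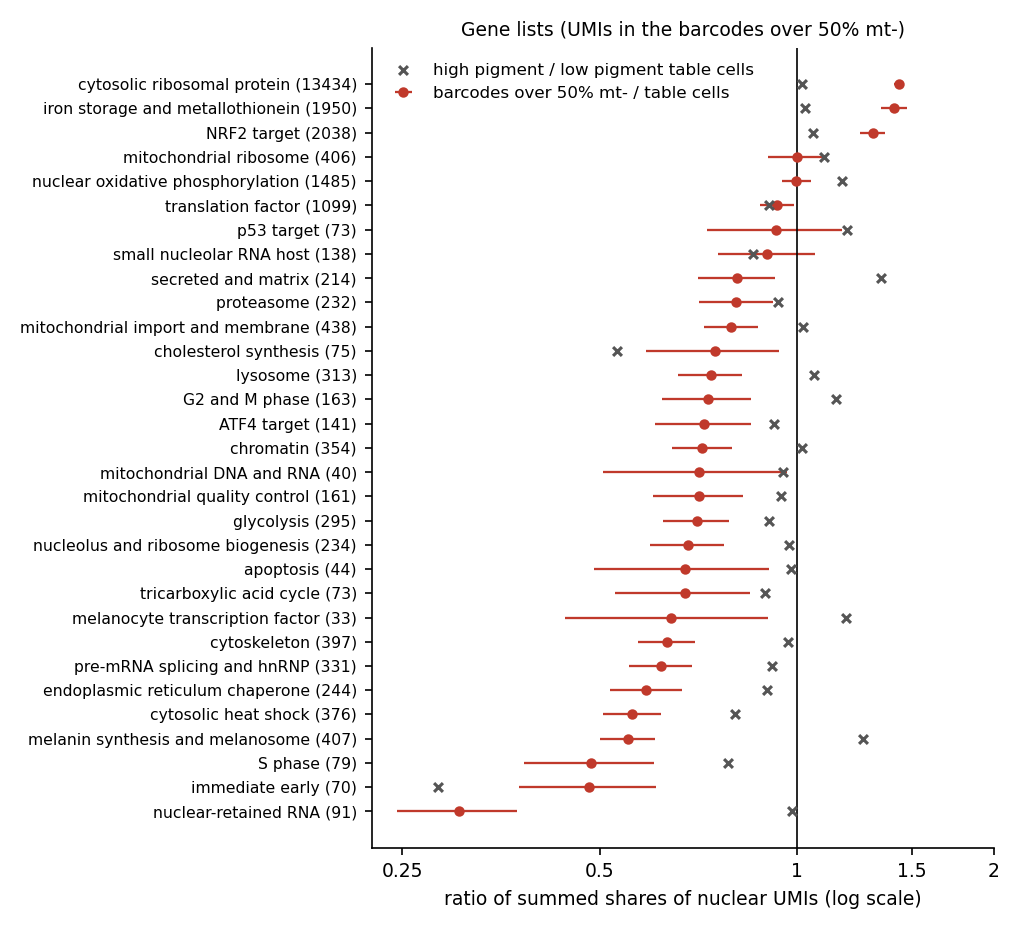
Ratio of the summed share of nuclear-encoded UMIs, mostly mitochondrial barcodes over low pigment table cells (red, with 95% counting interval; horizontal, log scale), for the gene lists, with each list's UMIs in those barcodes in brackets; crosses give high pigment over low pigment table cells. Ribosomal protein genes lie at 1.43 and nuclear-retained RNA at 0.305.

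Cell cycle and stress lists rested on few UMIs. The S phase list had 79 UMIs and a ratio of 0.485 (0.384 to 0.605), and the G2 and M phase list 163 UMIs and a ratio of 0.732 (0.624 to 0.853). Against table cells that the authors assigned to G1, the S phase ratio was 1.00, and the G2 and M phase ratio was 1.56. Cells of G1 are by definition set apart from S, G2 and M phases, so this comparison cannot decide either direction. The apoptosis list had 44 UMIs and a ratio of 0.675 (0.491 to 0.907), and the p53 target list 73 UMIs and a ratio of 0.932 (0.730 to 1.17). Zmat3, a p53 target that binds RNA, was 5.21-fold higher (2.49 to 9.61) on 10 UMIs, and Dnmt3a, a DNA methyltransferase, 9.49-fold higher (4.72 to 17.1) on 11 UMIs, while Bax, a p53 target that permeabilises the mitochondrial outer membrane, had a ratio of 0.447 (0.214 to 0.822). Glycolysis genes had a ratio of 0.704 (0.626 to 0.789), with Pkm at 0.400 (0.241 to 0.624). The mitochondrial DNA and RNA list had a ratio of 0.710 (0.507 to 0.967) and the small nucleolar RNA host list 0.902 (0.758 to 1.07). Lysosome, chromatin, nucleolus, proteasome, ATF4 target, cholesterol, secreted and matrix, and melanocyte transcription factor lists had ratios between 0.643 and 0.811.

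Against table cells, short transcripts were less reduced than long ones. With ribosomal protein genes left out, protein-coding genes with a median transcript length under 1000 bases took 25.2% of nuclear-encoded UMIs against 26.6% in table cells, a ratio of 0.949 (0.931 to 0.967). Genes of 1000 to 2000 bases had a ratio of 0.796 (0.778 to 0.815), those of 2000 to 4000 bases 0.742 (0.723 to 0.762) and longer ones 0.774 (0.745 to 0.804). Since shares add to 100%, the larger ribosomal protein and Gm42418 shares lower all of these alike. The ratio to table cells was still nearest to 1 for short transcripts. This order was not kept against the 499 left-out barcodes of low mitochondrial share. In those, genes under 1000 bases took 29.8%, against 25.2% in the selected barcodes. Genes of 1000 to 2000 bases took 23.2% against 17.6%, and those of 2000 to 4000 bases 14.7% against 13.6%. Longer genes took 5.49% against 6.43%, so they alone were higher in the selected barcodes. The part of length in the list differences was not tested.

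Across the 434 barcodes, nuclear-encoded and mitochondrial UMIs had a Spearman correlation of 0.37 and a Pearson correlation of 0.32, against a Spearman correlation of 0.64 in table cells. All points share 1 library and its threshold for calling a barcode, and the correlations are given as a description. Gm42418 was present at every level of mitochondrial share: it took 2.30% of nuclear-encoded UMIs at 70 to 80%, 2.89% at 80 to 90% and 3.48% above 90%. Malat1 took 0.114% (0.0460 to 0.235), 0.0773% (0.0386 to 0.138) and 0.0934% (0.0554 to 0.148) in the same bins, on 7, 11 and 18 UMIs, with overlapping intervals. Ribosomal protein genes took 42.5%, 33.8% and 27.6% in these bins, and Ftl1 1.88%, 2.59% and 3.43%. The pigment gene share was 0.931% (0.706 to 1.205), 0.983% (0.828 to 1.16) and 0.981% (0.847 to 1.13), with overlapping intervals. Only 3 barcodes lay below 70%, too few to describe as a group.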

How the data were processed

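The authors deposited whole-number UMI counts per gene and barcode for both libraries in 1 aggregated matrix of 32285 genes, with a table of kept cells; Cell Ranger 6.1.2 and mm10 are named per the submitters' processing notes. The sources used here do not give how depth was handled in aggregation. No column lacked a known sample. The members and gene lists were chosen with earlier results of these data known. Barcodes were classed by library number, presence in the table and mitochondrial share. Counts were summed per class with Python 3.11.15, numpy 2.4.6 and scipy 1.17.1. Ratios carry exact conditional binomial intervals, shares Clopper-Pearson intervals; a gene at 0 in the members was set to 3 UMIs. Named genes were all mt- genes, the 12 highest and 12 lowest ratios among genes of mean nuclear CPM of at least 200, the 10 most abundant, and the 3 highest and 2 lowest of each of 38 lists. Of those, most with under 10 UMIs are left unnamed, and genes of at least 1000 nuclear CPM were added after seeing the data. Each minimum level is a mean over both groups, so a gene can pass through a high level in 1 group alone. The calculation was tested on simulated data. No doublet caller was run. The result of 1 list of other-cell markers is not reported here.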

Additional observations from a re-analysis of the deposited data

How the results depend on the processing

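The number of barcodes was 437, 432 and 412 with thresholds of 40%, 60% and 80%. Genes higher and lower by 1.5-fold depended on the minimum level, because fewer or more genes were tested: 2038 and 1477 at 10 nuclear CPM, 89 and 153 at 200, 34 and 16 at 1000, and 2038 and 1452 among all genes with a UMI in both groups. Under the other 10 settings, 604 to 845 were higher and 714 to 898 lower.
Against left-out barcodes under 10%, Tyrp1 and Gpnmb had log2 ratios of 0.31 and 0.30, the reverse of their direction against table cells. Against G1 table cells, a group that is set apart from S phase by definition, the S phase list had a log2 ratio of 0.00039. The causes were not tested. Across 7 settings mt-Nd1 had ratios from 0.534 to 0.639 and mt-Atp8 from 1.80 to 3.24. The ribosomal protein list ranged from 1.27 to 1.60, the pigment list from 0.511 to 0.797 and the nuclear-retained list from 0.157 to 0.872 over 15 settings. Thinning to 100 nuclear-encoded UMIs, as first planned, was not run because 24.4% of the barcodes reached that depth. With 41652 nuclear-encoded UMIs in all, genes near the minimum of 50 nuclear CPM rest on a few UMIs each. No paired analysis was possible because each pigment group had 1 library.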
